A study of Mus musculus with 6 samples.

Results

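Lysosomes are acidic compartments in which enzymes break down proteins, lipids, glycans and engulfed cell debris. Their membrane proteins shield the limiting membrane and export the products, and a multi-subunit proton pump, the vacuolar ATPase, sets the acid pH that the enzymes need. After a bleed into the brain, microglia and infiltrating phagocytes clear red cells and myelin through lysosomes, whereas neurons carry the same pump on synaptic vesicles, where its proton gradient drives the loading of neurotransmitter.

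The genes described here were 39 named members of this system, found by their symbols in a table of 24459 genes; all 39 were present and all 39 passed the filter on low counts among 14441 genes tested. They comprised 9 hydrolytic enzymes, 3 activator or carrier proteins, 10 membrane proteins, the transcription factor Tfeb, and 16 subunits or accessory proteins of the proton pump. The 22 enzymes, activators and membrane proteins are called the hydrolase and membrane group and are set against the 16 pump genes. RNA came from the brain tissue around the clot of wild-type (WT) mice on day 5 after intracerebral haemorrhage (ICH), and was measured by nanopore sequencing of PCR-amplified cDNA. The tested mice had received TEPP-46, a small-molecule activator of the pyruvate kinase isoform PKM2, on each of the 5 days after the bleed (3 libraries, T1, T2 and T3), and the others vehicle over the same days (3 libraries, C1, C2 and C4). All animals of both groups had the haemorrhage, no mice without it were analysed here, and the labels give neither the age nor the sex of the mice. Whether each library is a different mouse is not stated in the labels, so the p-values rest on the spread among libraries, which may be technical.

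Libraries held between 5286426 and 6025064 counts. Levels are given as CPM, the count of a gene per 1000000 counts of the library; CPM does not correct for transcript length, so levels are compared between libraries and not between genes. Markers of neurons, astrocytes and oligodendrocytes were detected in all 6 libraries, as the label of brain tissue requires, but vehicle libraries C2 and C4 stood apart. Choroid plexus markers (4 genes) summed to 3191, 1799 and 3205 CPM in TEPP-46 libraries T1, T2 and T3 and to 4098 CPM in vehicle library C1, against 3.68 CPM in C2 and 15.7 CPM in C4. Microglial markers (10 of 10 detected in every library) summed to 848, 1258 and 1382 CPM in T1, T2 and T3, and to 883, 2055 and 569 CPM in C1, C2 and C4. Oligodendrocyte markers (5 genes) summed to between 12684 and 14801 CPM in the TEPP-46 libraries, and to 5141 CPM in C4 against 12885 CPM or more in C1 and C2. In bulk tissue, a change in the number of cells of a type and a change in RNA per cell cannot be told apart.

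No member was called between TEPP-46 and vehicle. With edgeR's quasi-likelihood test and Benjamini-Hochberg adjustment over all 14441 genes, 0 of 39 members had an adjusted p under 0.05, where the share called over all genes was 0%. At an unadjusted p under 0.05, 1 member was lower in TEPP-46 (Lamp1) and 0 were higher, beside 4.05% of all genes lower and 1.88% higher. By DESeq2, an alternative count model, 0 members had an adjusted p under 0.05, beside 0.568% of genes called lower. Lamp1 was also the 1 member whose TEPP-46 and vehicle libraries did not overlap, and it was lower; over all genes tested, 5.76% were non-overlapping and lower and 5.67% non-overlapping and higher. Log2 fold changes of TEPP-46 over vehicle were positive in 19 members and negative in 20, with a median of -0.02, against a median of 0.01 over all genes tested.

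**Figure D1:**
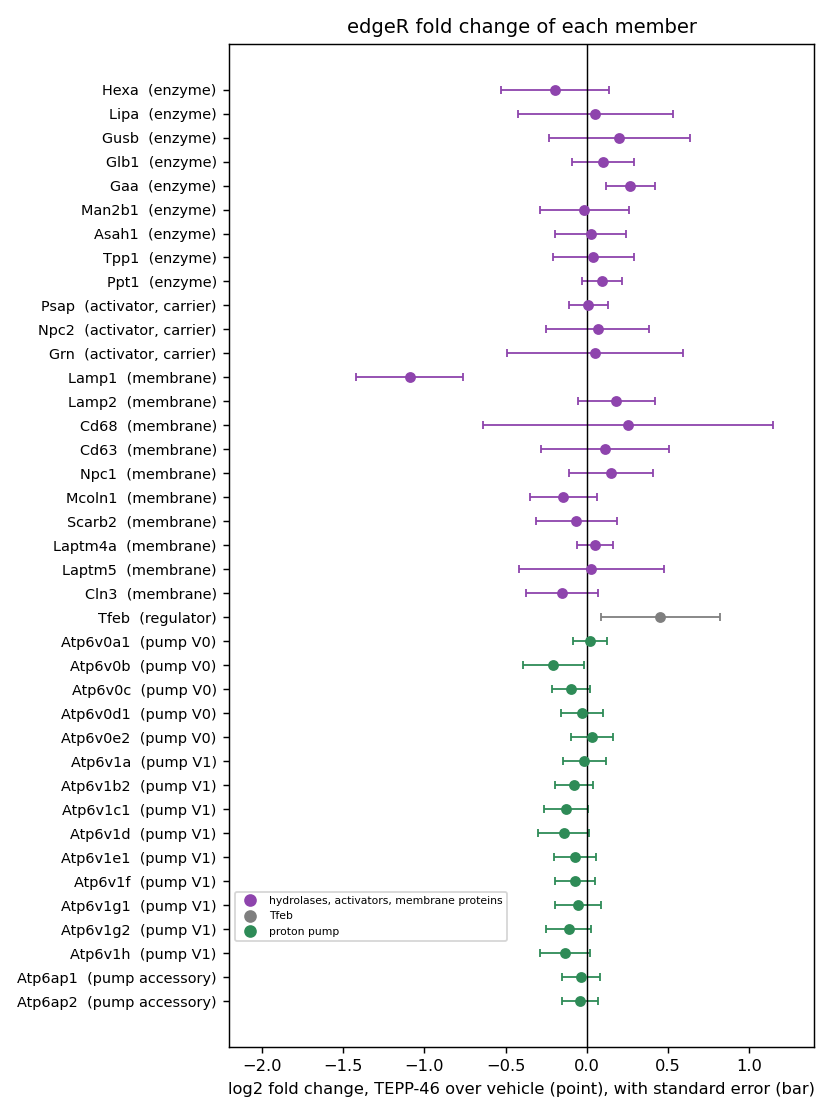
Log2 fold change of TEPP-46 over vehicle (x axis) for each of the 39 genes (rows), from edgeR, with bars of 1 standard error and colour by group. Lamp1, at -1.09, lies farthest from 0, the 9 V1 pump genes all lie left of 0, and the bars of Cd68 are the widest.

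Among membrane proteins, Lamp1 differed most between the groups. Lamp1 encodes a heavily glycosylated protein that lines the lysosomal membrane, and it lies on chromosome 8 at 13159161 to 13175338 on the plus strand of GRCm38 (gene ENSMUSG00000031447). It had 221, 287 and 262 counts in TEPP-46 libraries T1, T2 and T3, or 36.7, 51.0 and 49.4 CPM. In vehicle libraries C1, C2 and C4 it had 504, 295 and 759 counts, or 94.4, 51.7 and 143.6 CPM. The groups did not overlap, but vehicle library C2 was within 1 CPM of T2, and the gap was set by C1 and C4. Over the 3 libraries of each group, the mean ± SD was 45.7 ± 7.85 CPM for TEPP-46 and 96.6 ± 46.0 CPM for vehicle. The log2 fold change was -1.09 ± 0.33 (SE), with an unadjusted p of 0.00994 and an adjusted p of 0.646 by edgeR. DESeq2 gave an adjusted p of 0.0548 for Lamp1.

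The Lamp1 difference kept its sign when each library was left out in turn, with log2 fold changes between -1.39 and -0.68. Because the groups did not overlap in CPM, leaving out 1 library could not turn the sign, apart from shifts in scaling. The kept sign is therefore no test of the difference. Without C2, the vehicle library nearest to the TEPP-46 values, edgeR called it (log2 fold change -1.39, adjusted p = 0.0480). In that run 43 of 14752 genes were called, 41 of them lower, against 0 genes with all libraries. Without C4, the library with the highest level, the value was -0.68 (edgeR unadjusted p = 0.0283). In the authors' deposited table, Lamp1 was the 1 member listed as lower (log2 fold change -0.76, unadjusted p = 0.000409), where 1.29% of genes with a value were listed as lower and 0 members as higher. All Lamp1 counts fell on 1 isoform, Lamp1-201. For that isoform, edgeR gave an adjusted p of 0.732 and DESeq2 0.0170, and without C2 edgeR gave 0.00765. Many other isoforms were called in these 2 runs. DESeq2 called 158 isoforms, 157 of them lower, and edgeR without C2 called 178 of 34945, 176 of them lower. The authors' deposited table lists it with a false discovery rate of 0.0355. The gene values, the isoform values and the authors' values rest on the same 6 libraries, so they are not separate evidence.

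The Lamp1 promoter is shown because Lamp1 was the member with the largest difference, and because its sequence is dense in the core of the CLEAR element. The transcription factor TFEB, the protein of Tfeb, binds this element in lysosomal genes. The sequence is from RefSeq (GRCm38.p6), chr8:13158911-13159160 (plus strand), the 250 bases before the start of transcription, with each CACGTG in capitals.
Lamp1: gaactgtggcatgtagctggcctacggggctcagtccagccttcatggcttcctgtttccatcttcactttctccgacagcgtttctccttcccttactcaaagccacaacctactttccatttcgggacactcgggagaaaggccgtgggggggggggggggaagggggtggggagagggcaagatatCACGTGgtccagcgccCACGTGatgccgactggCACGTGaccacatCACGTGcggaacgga
The 4 copies of CACGTG lie between 61 and 15 bases before the start, and 0 of them lie within TCACGTGA, a longer CLEAR-like motif. Of 27025 genes with a promoter window of 300 bases (250 before the start and 50 after), 6 genes (0.0222%) hold 4 or more copies. A match is a description of letters, and binding of TFEB was not measured.

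Of the 39 members, 33 had a promoter window; Asah1, Atp6v1b2, Atp6v1c1, Atp6v1g1, Atp6v1h and Npc1 are not in that table. CACGTG, a palindrome that reads the same on both strands, was found in 8 of 33 member windows (24.2%) and in 2187 of 27025 windows of all genes (8.09%). The longer TCACGTGA, each copy of which contains CACGTG, was found in 4 of 33 member windows (12.1%) and in 304 of all windows (1.12%). These 4 members were Atp6v0d1, Atp6v1a, Cln3 and Mcoln1, and Lamp1 was not among them. The core was as frequent in the hydrolase and membrane group (5 of 20 windows, 25%) as in the pump genes (3 of 12, 25%). The other 7 members that hold it are shown with the bases around each copy, on the strand of the gene, in capitals.
Atp6v0b, chr4:117887325-117887382 (minus strand): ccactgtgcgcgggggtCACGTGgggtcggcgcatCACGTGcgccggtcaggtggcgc
Atp6v0d1, chr8:105566045-105566084 (minus strand): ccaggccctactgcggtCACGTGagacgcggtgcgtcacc
Atp6v1a, chr16:44139368-44139407 (minus strand): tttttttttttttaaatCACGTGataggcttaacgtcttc
Cln3, chr7:126583335-126583402 (minus strand): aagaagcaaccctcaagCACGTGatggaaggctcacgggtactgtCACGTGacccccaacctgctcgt
Gaa, chr11:119267806-119267845 (plus strand): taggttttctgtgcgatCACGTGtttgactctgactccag
Glb1, chr9:114401013-114401052 (plus strand): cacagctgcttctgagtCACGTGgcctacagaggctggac
Mcoln1, chr8:3500431-3500496 (plus strand): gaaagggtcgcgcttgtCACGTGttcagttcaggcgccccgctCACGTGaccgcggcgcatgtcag
Of these 7 genes, fold changes were positive in Gaa and Glb1 and negative in Atp6v0b, Atp6v0d1, Atp6v1a, Cln3 and Mcoln1, and no edgeR test passed.

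Lamp2, the other abundant lysosomal membrane glycoprotein, had a fold change of the opposite sign, which was not tested against that of Lamp1. Lamp2 had 78.5, 82.7 and 91.4 CPM in TEPP-46 libraries T1, T2 and T3, and 76.0, 97.7 and 46.7 CPM in C1, C2 and C4. The TEPP-46 values lay within the vehicle range, and the log2 fold change was 0.18 ± 0.24 (SE) by edgeR. Lamp2 is made in 3 forms that share their outer part and differ in the last coding exon, which encodes the membrane anchor and the short tail in the cytosol. The tail of form A is the receptor through which cytosolic proteins enter lysosomes in chaperone-mediated autophagy. The last coding exons are printed because the isoform counts turn on them; the gene lies on the minus strand of chromosome X at 38401357 to 38456454 (GRCm38), and capitals mark the last 5 codons before the stop.
Form A (Lamp2-201), chrX:38405432-38405571: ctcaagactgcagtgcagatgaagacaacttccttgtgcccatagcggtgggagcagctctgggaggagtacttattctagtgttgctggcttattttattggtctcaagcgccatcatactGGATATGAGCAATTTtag
Form B (Lamp2-202), chrX:38421712-38421851: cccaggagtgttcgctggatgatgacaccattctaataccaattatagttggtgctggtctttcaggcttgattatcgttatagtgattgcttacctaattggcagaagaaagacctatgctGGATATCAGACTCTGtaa
Form C (Lamp2-203), chrX:38402139-38402281: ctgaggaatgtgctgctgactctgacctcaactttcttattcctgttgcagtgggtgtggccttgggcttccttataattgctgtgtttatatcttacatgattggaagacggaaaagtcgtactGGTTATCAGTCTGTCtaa
Over 140 bases aligned without gaps backwards from the stop codon, forms A and B, and forms B and C, were identical at 53.6% of positions. Forms A and C were identical at 51.4%.

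Form A took 41.4, 42.8 and 48.1% of the counts of the 3 forms in T1, T2 and T3, and 41.7, 45.1 and 29.5% in C1, C2 and C4. Form C took 23.8, 21.3 and 18.3% in T1, T2 and T3, and 23.2, 20 and 35.2% in C1, C2 and C4. Library C4 was the lowest for form A and the highest for form C, while form B lay between 33.6 and 36.0% in all 6 libraries. In T1, the TEPP-46 library with the largest share of form C, the exact 95% interval ended at 28.2%, against an interval of 29.0 to 41.8% in C4, where form C had 80 of 227 counts. Form A had a mean ± SD of 44.1 ± 3.54% over the TEPP-46 libraries and 38.8 ± 8.17% over the vehicle libraries (n = 3 each; two-sided exact permutation p = 0.5, adjusted 0.7 over the 3 forms). The means of form C were 21.1 ± 2.75% in TEPP-46 and 26.1 ± 8.04% in vehicle (exact permutation p = 0.5, adjusted 0.7). Form B averaged 34.8 ± 1.21% in TEPP-46 and 35.1 ± 0.150% in vehicle (exact permutation p = 0.7, adjusted 0.7). With 3 libraries a group the smallest p this test can give is 0.1. A new isoform without a reference name took 10.8% of Lamp2 counts and is not in these shares. The intervals treat each read as independent and leave out variation between libraries. PCR copies are not independent molecules, so the intervals may be too narrow even for counting error.

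**Figure D2:**
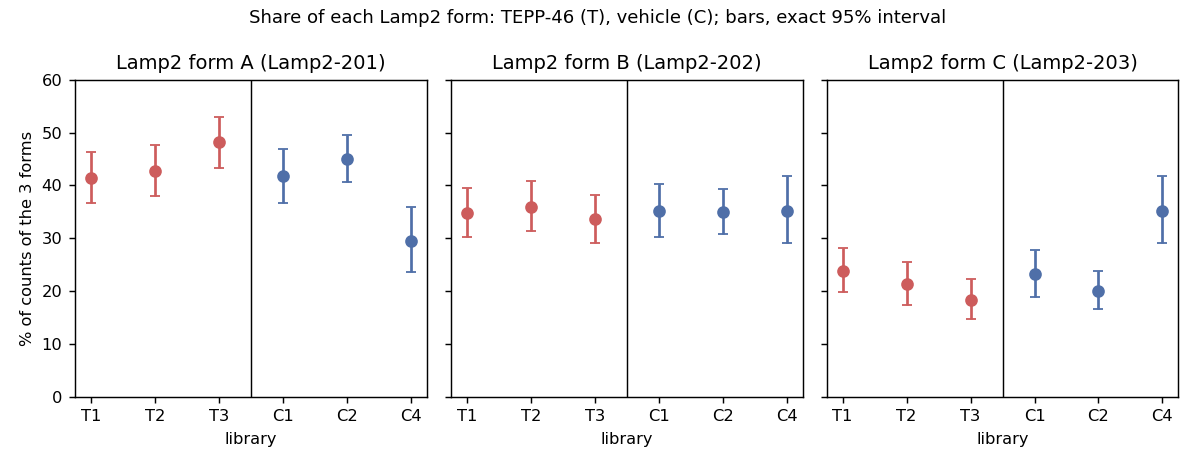
Share of Lamp2 counts (y axis, % of the 3 reference forms) in each library (x axis), with TEPP-46 left of the line and vehicle right of it; points are shares and bars exact 95% binomial intervals. The TEPP-46 libraries have form C shares of 18.3 to 23.8%, and vehicle library C4 has 35.2%.

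Of the 10 membrane proteins, 9 varied more among the vehicle libraries than among the TEPP-46 libraries by the ratio of highest to lowest CPM, Mcoln1 being the exception. Cd68, a glycoprotein of macrophage and microglial lysosomes, had 19.1, 42.7 and 46.5 CPM in T1, T2 and T3, against 13.7, 70.0 and 5.49 CPM in C1, C2 and C4. Its highest vehicle value was 12.8 times its lowest, the widest spread among the members, and its log2 fold change was 0.25 ± 0.89 (SE). Cd63, a tetraspanin of late endosomes and exosomes, had 434, 557 and 769 CPM in T1, T2 and T3, and 390.1, 883 and 337 CPM in C1, C2 and C4 (log2 fold change 0.11 ± 0.40). Laptm5, found mainly in blood-derived immune cells and microglia, had 23.1, 36.6 and 39.6 CPM in T1, T2 and T3, and 25.3, 55.8 and 14.9 CPM in C1, C2 and C4. C2 was the highest and C4 the lowest of the 6 libraries for each of these 3 genes.
Laptm4a, a widely expressed relative of Laptm5, showed less spread, with 212, 208 and 215 CPM in T1, T2 and T3, and 199, 218 and 189.7 CPM in C1, C2 and C4. Npc1, the transporter that takes cholesterol out of lysosomes, had 11.8, 12.1 and 15.6 CPM in T1, T2 and T3, and 11.99, 14.9 and 8.32 CPM in C1, C2 and C4. Mcoln1, which encodes the calcium-releasing channel TRPML1, had 21.4, 32.9 and 27.9 CPM in T1, T2 and T3, and 27.3, 27.5 and 35.2 CPM in C1, C2 and C4. It was, with Lamp1, 1 of 2 genes of the hydrolase and membrane group with its highest vehicle value in C4. Scarb2, which carries glucocerebrosidase to lysosomes, and Cln3, the gene mutated in juvenile Batten disease, had log2 fold changes of -0.06 and -0.15.

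Tfeb, the master regulator of lysosomal gene transcription, had 8.30, 9.78 and 16.4 CPM in T1, T2 and T3, and 10.5, 9.82 and 4.54 CPM in C1, C2 and C4. The groups overlapped, and the log2 fold change was 0.45 ± 0.37 (SE; edgeR adjusted p = 0.973). It rested on 24 to 87 counts a library, and was 0.12 without T3, 0.16 without C4 and 0.65 without C1.

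**Figure D3:**
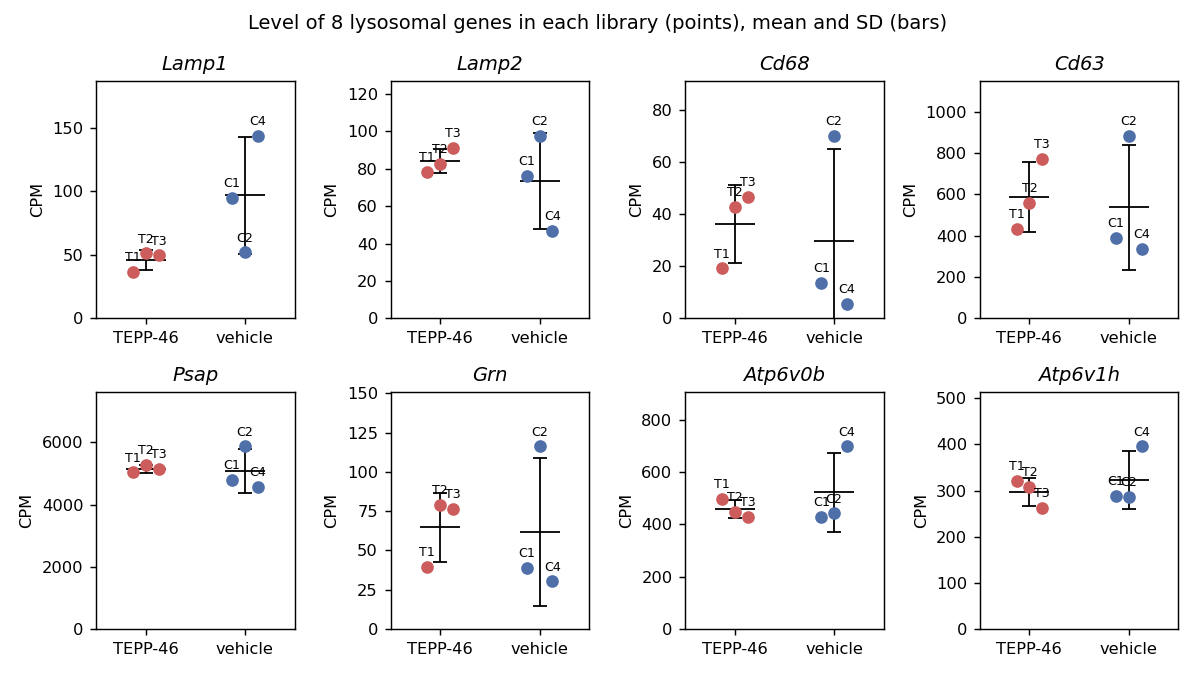
CPM (y axis) of 8 members in each library (points), with TEPP-46 left and vehicle right; horizontal lines are means and bars 1 SD (n = 3 each), and the lower vehicle bar of Cd68 runs below the axis at 0. Lamp1 lies between 36.7 and 51.0 CPM in TEPP-46 and between 51.7 and 143.6 CPM in vehicle, while C2 is the top vehicle point for Lamp2, Cd68, Cd63, Psap and Grn and C4 for Lamp1, Atp6v0b and Atp6v1h.

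The 9 hydrolytic enzymes had log2 fold changes between -0.20 and 0.27, 7 positive and 2 negative, with a median of 0.05. Gaa, the acid glucosidase that breaks down glycogen, had 183, 194 and 174 CPM in T1, T2 and T3, against 185, 145 and 125 CPM in C1, C2 and C4. Its groups overlapped because C1 lay among the TEPP-46 libraries, and its log2 fold change was 0.27 ± 0.15 (SE; edgeR unadjusted p = 0.110). Without C1 the value was 0.43 (edgeR unadjusted p = 0.0144, adjusted p = 0.649), and without C4 it was 0.15. Ppt1, which removes palmitate from proteins, had 133, 119 and 141 CPM in T1, T2 and T3, and 122, 131 and 112 CPM in C1, C2 and C4.
Hexa, a subunit of the hexosaminidase that degrades gangliosides, had 32.2, 36.1 and 42.0 CPM in T1, T2 and T3, and 32.8, 66.8 and 25.3 CPM in C1, C2 and C4. Lipa, the acid lipase that frees cholesterol from its esters, had 30.9, 32.0 and 43.3 CPM in T1, T2 and T3, and 25.5, 61.4 and 14.0 CPM in C1, C2 and C4. Gusb, which cleaves glucuronides, had 19.4, 25.1 and 29.4 CPM in T1, T2 and T3, and 17.2, 36.8 and 9.27 CPM in C1, C2 and C4. In these 3 enzymes the TEPP-46 libraries lay inside the vehicle range, which ran from C4 to C2. Glb1, a galactosidase, had a log2 fold change of 0.10 and the smallest ratio of highest to lowest vehicle value of the 22 genes, from 12.5 to 14.0 CPM. For Man2b1, a mannosidase, Asah1, the acid ceramidase, and Tpp1, a peptidase, the fold changes were -0.02, 0.02 and 0.04.

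The 3 activator or carrier proteins had log2 fold changes of 0.01 to 0.07. Psap, the precursor of the saposins that present lipids to hydrolases, had 5033, 5285 and 5131 CPM in T1, T2 and T3, and 4785, 5866 and 4556 CPM in C1, C2 and C4. Its sign turned with the scaling, from 0.01 here to -0.01 by DESeq2. Npc2, which hands cholesterol to Npc1, had 82.7, 88.2 and 103.8 CPM in T1, T2 and T3, and 75.3, 134 and 49.8 CPM in C1, C2 and C4. Grn, the precursor of the granulins, had 39.5, 78.8 and 76.1 CPM in T1, T2 and T3, and 38.8, 116 and 30.3 CPM in C1, C2 and C4. For all 3 genes C2 was the highest and C4 the lowest library.

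The 16 pump genes had log2 fold changes between -0.21 and 0.03, with 14 negative and 2 positive and a median of -0.07, and none had an unadjusted edgeR p under 0.05. Without C4, 8 of 16 were negative and the median was 0.00365, so the lean towards negative values rested on that library. With RLE scaling, no filter and DESeq2 the split stayed at 14 negative and 2 positive. In the V0 sector, which spans the membrane and carries protons across it, Atp6v0c, the main subunit of the rotating ring, had 854, 839.9 and 828 CPM in T1, T2 and T3, and 841, 815 and 1016 CPM in C1, C2 and C4. Atp6v0a1, the stationary subunit enriched at nerve terminals, had 713, 724 and 656 CPM in T1, T2 and T3, and 725, 672 and 649.6 CPM in C1, C2 and C4. Atp6v0b, another ring subunit, had 496, 446 and 429.8 CPM in T1, T2 and T3, and 427, 442 and 698 CPM in C1, C2 and C4, with a log2 fold change of -0.21 ± 0.19 (SE). Atp6v0d1 and Atp6v0e2 had log2 fold changes of -0.03 and 0.03.

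In the V1 sector, which hydrolyses ATP in the cytosol, all 9 genes had negative fold changes, with a median of -0.08. Atp6v1a, the catalytic subunit, had 384, 344 and 341 CPM in T1, T2 and T3, and 426, 317 and 328 CPM in C1, C2 and C4. Atp6v1e1, a subunit of the outer stalk, had 324, 297 and 292 CPM in T1, T2 and T3, and 311, 276 and 366 CPM in C1, C2 and C4. Atp6v1g2, the neuronal form of a second stalk subunit, had 357, 299 and 291 CPM in T1, T2 and T3, and 337, 291 and 387 CPM in C1, C2 and C4. Its widely expressed counterpart Atp6v1g1 had 202, 184 and 203 CPM in T1, T2 and T3, and 168, 204 and 233 CPM in C1, C2 and C4.
In 8 of the 9 V1 genes the highest vehicle library was C4, and in 8 of 9 the highest TEPP-46 library was T1. The remaining V1 members Atp6v1b2, Atp6v1c1, Atp6v1d, Atp6v1f and Atp6v1h had log2 fold changes between -0.14 and -0.07. The accessory proteins Atp6ap1 and Atp6ap2 help to assemble the pump. Atp6ap1 had 133, 147 and 142 CPM in T1, T2 and T3, and 153, 144 and 133 CPM in C1, C2 and C4. Atp6ap2 had 167, 150.1 and 158 CPM in T1, T2 and T3, and 171, 157 and 158 CPM in C1, C2 and C4.

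**Figure D4:**
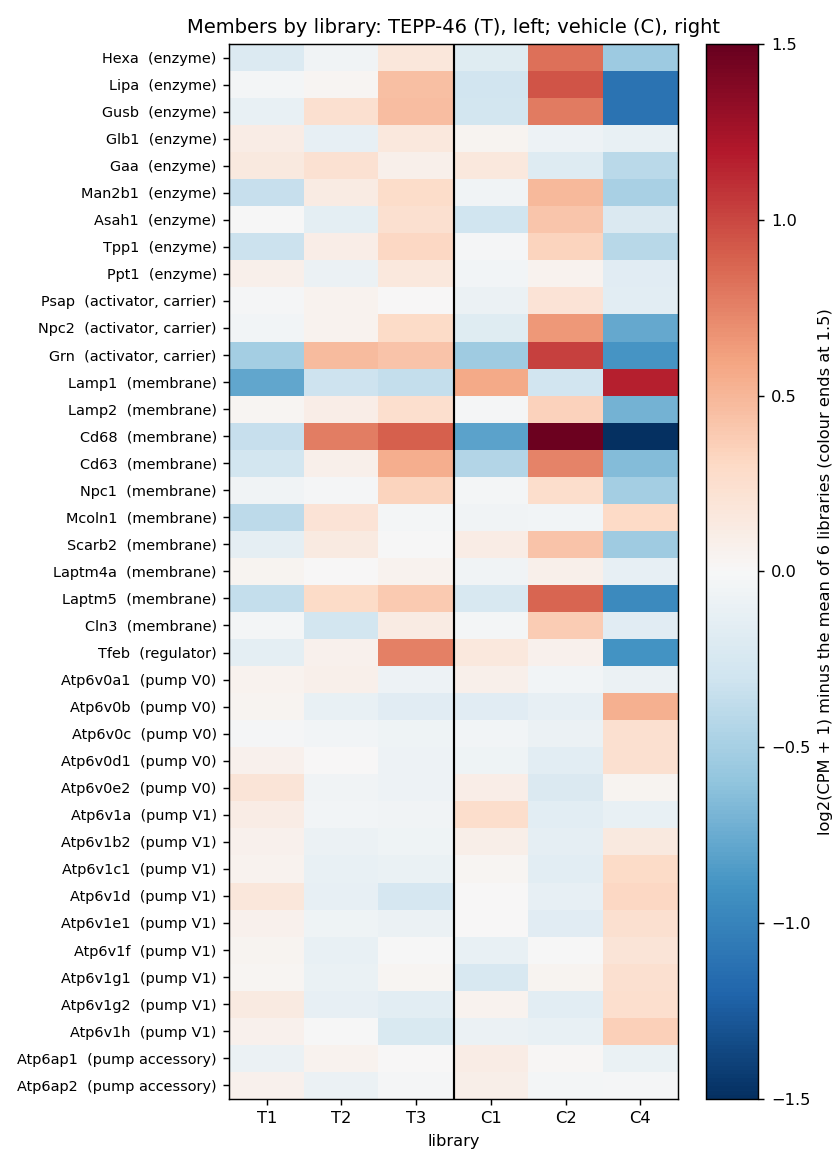
Deviation of each of the 39 genes (rows) in each library (columns, TEPP-46 left and vehicle right) from its mean over the 6 libraries, in log2(CPM + 1), with red above and blue below the mean and the colour ending at 1.5 either way. Most rows of the upper, hydrolase and membrane block are red in C2 and blue in C4, the Lamp1 row runs the other way, and most rows of the lower pump block are red in C4.

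The hydrolase and membrane group and the 16 pump genes of the member list differed in how they varied among libraries. Within TEPP-46, the highest over the lowest CPM had a median of 1.33 in the 22 genes of the hydrolase and membrane group, against 1.26 in 7964 tested genes in the same range of mean CPM. Within vehicle the median ratio was 2.003 (range 1.13 to 12.8), against 1.33 in those genes. The pump genes had median ratios of 1.11 within TEPP-46 and 1.32 within vehicle, against 1.17 and 1.25 in 1162 tested genes in their CPM range. C2 was the highest vehicle library in 18 of 22 hydrolase and membrane genes, where 27.5% of genes of that CPM range had it highest, and in 0 of 16 pump genes, where 25.2% had. C4 was the lowest vehicle library in 19 of 22 hydrolase and membrane genes (34.1% in the CPM range) and the highest in 11 of 16 pump genes (48.1%).

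Summed over the 22 genes, the hydrolase and membrane group had 6523, 7025 and 7164 CPM in T1, T2 and T3, and 6259, 8166 and 5817 CPM in C1, C2 and C4. The 16 pump genes summed to 5702, 5289 and 5134 CPM in T1, T2 and T3, and to 5497, 5087 and 6239 CPM in C1, C2 and C4. The log2 ratio of the first sum to the second, which does not depend on scaling between libraries, was 0.19, 0.41 and 0.48 in T1, T2 and T3, and 0.19, 0.68 and -0.10 in C1, C2 and C4. The ratio averaged 0.36 ± 0.15 over the TEPP-46 libraries and 0.26 ± 0.40 over the vehicle libraries (SD, n = 3 each). The difference of 0.11 was smaller than the spread within vehicle. Psap makes up most of the first sum; without it, an alternative chosen after seeing the data, the difference was 0.16. The sign rested on C4: the difference was -0.07 without C4, 0.32 without C2 and 0.05 without T3. The ratio was highest in C2 and lowest in C4, with the 3 TEPP-46 libraries between them.

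Markers of several cell types also differed between libraries. Ranked by the mean deviation over genes in log2(CPM + 1), the hydrolase and membrane group and the 10 microglial markers had the same order of all 6 libraries, C2, T3, T2, C1, T1 and C4 from high to low. The 5 astrocyte markers had nearly that order (C2, T3, T2, T1, C1 and C4), and the 4 endothelial markers were also highest in C2, so the order is not particular to phagocyte markers. The pump genes had the order C4, T1, C1, T2, T3 and C2, and the 9 neuronal markers the order T1, C4, C1, T2, T3 and C2. Lists outside the members did not all follow their group. The 9 other pump subunits, with 1 to 4 at 0 in each library, ran C2, T3, T2, T1, C1 and C4. The 14 other lysosomal membrane proteins ran C1, T2, T3, T1, C2 and C4. The 24 other hydrolases (C2, T3, T2, C1, C4 and T1) were highest in C2, like the member group. The 11 pump assembly factors and partners (C1, T1, C4, T3, T2 and C2) were lowest in C2, like the member pump genes. Neuronal markers summed to 7627, 6622 and 5981 CPM in T1, T2 and T3, and to 7069, 5885 and 7889 CPM in C1, C2 and C4. Markers of activated phagocytes (8 genes, of which Itgax was at 0 in at least 1 library) summed to 8776, 13039 and 16322 CPM in T1, T2 and T3, and to 9013, 21478 and 8112 CPM in C1, C2 and C4. Markers of infiltrating monocytes (5 genes, of which Plac8 was at 0 in at least 1 library) summed to 77.5, 179.8 and 253 CPM in T1, T2 and T3, and to 60.9, 513 and 24.6 CPM in C1, C2 and C4. Over the 6 libraries, Apoe had 360587 counts among the activated phagocyte markers, and Spp1, the next highest, 45184. Among the monocyte markers Lyz2 had 5970 counts, and S100a4, the next highest, 111. Each of these sums therefore mostly follows its top gene. The part of these cell types in the members' values was not tested.

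**Figure D5:**
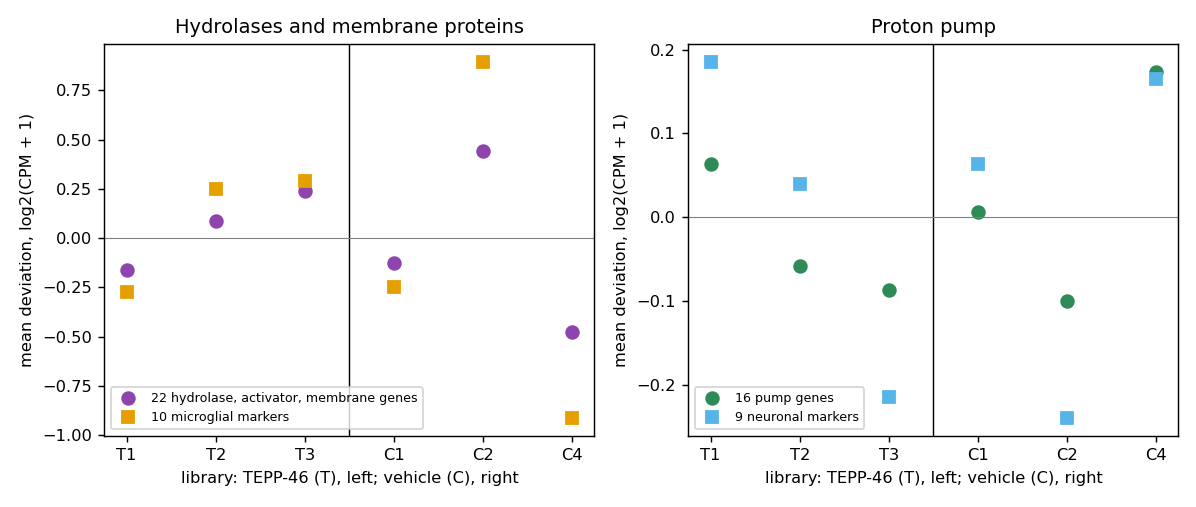
Mean deviation from the 6-library mean in log2(CPM + 1) (y axis) by library (x axis), TEPP-46 left of the line and vehicle right. On the left, the 22 hydrolase and membrane genes (circles) and the 10 microglial markers (squares) are both highest in C2 and lowest in C4; on the right, the 16 pump genes (circles) and the 9 neuronal markers (squares) are both lowest in C2; the y axes differ in scale.

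Without C2, 7 of 39 members were higher in TEPP-46 at an unadjusted p under 0.05 by edgeR, beside 4.51% of all genes. Of these, 2 were enzymes (Lipa and Gusb), 2 carrier or granulin genes (Npc2 and Grn) and 3 membrane proteins (Cd68, Cd63 and Laptm5), and 0 of the 7 passed adjustment. Lamp1 was lower. Log2 fold changes were 1.91 for Cd68, 0.90 for Grn, 0.89 for Gusb, 0.84 for Lipa, 0.71 for Laptm5, 0.69 for Cd63 and 0.55 for Npc2, with edgeR adjusted p between 0.172 and 0.470. C2 was the highest vehicle library for each of these 7 genes, so leaving it out lowers the vehicle mean. In the hydrolase and membrane group, 16 of 22 fold changes were positive with all libraries, 20 of 22 without C2 and 4 of 22 without C4.

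Long reads assign counts to isoforms, which were examined in all 39 members. The members had 169 isoform entries, 36 of them new without a reference name, and 117 passed the filter on low counts. By edgeR, 0 of these had an adjusted p under 0.05 (0% over 33854 isoforms tested), 2 were lower and 0 higher at an unadjusted p under 0.05, beside 3.9% and 1.88% of all isoforms. These 2 were Lamp1-201 and Atp6v0b-203, and Atp6v0b-203 was named after its values were seen. Atp6v0b-203 had 7, 7 and 8 counts in T1, T2 and T3, and 13, 12 and 29 counts in C1, C2 and C4 (log2 fold change -1.37 ± 0.45, edgeR adjusted p = 0.650). The proportions of isoforms within a gene, tested by edgeR's diffSpliceDGE in 28 members, gave 0 calls and 0 members with an unadjusted p under 0.05, beside 0.0131% of genes called.

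Of 14 members with at least 2 reference isoforms of mean count 50 or more, 5 held the share of the top isoform within 2 percentage points over the 6 libraries. Among these 5, Psap and Lipa had top pairs of isoforms with nearly the same counts. The widest range was in Grn, where Grn-201 took 87.9, 86.0 and 86.6% of the counts of Grn-201 and Grn-210 in T1, T2 and T3, and 80.2, 86.8 and 71.5% in C1, C2 and C4. Some isoform counts were not independent of each other. Psap-205 and Psap-201 differed by at most 4 counts in any library, Lipa-201 and Lipa-202 had equal counts in 5 of 6 libraries, Cd63-202 and Cd63-204 had the same count in every library, and so did Tfeb-201 and Tfeb-204. Gene counts equalled the sum of isoform counts in 39 of 39 members.

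Other genes of the same system showed no called change either. Of 24 further hydrolases and their cofactors, 10 fold changes were positive and 14 negative, with none past an adjusted p of 0.05 by edgeR. Of 14 further lysosomal membrane proteins, 9 fold changes were positive and 5 negative. Tmem192, a lysosomal membrane protein often used to pull down whole lysosomes, had 6.64, 10.5 and 10.6 CPM in T1, T2 and T3, against 15.2, 18.2 and 14.6 CPM in C1, C2 and C4. Its log2 fold change was -0.81 ± 0.24 (edgeR unadjusted p = 0.00889, adjusted p = 0.623), and it was the only gene of that list with an unadjusted p under 0.05.

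Of 9 pump subunits outside the member list, 4 passed the filter on low counts, 2 with positive and 2 with negative fold changes. Atp6v1c2, a tissue-restricted form of the subunit that Atp6v1c1 encodes, had 4.81, 12.98 and 4.52 CPM in T1, T2 and T3, against 1.31, 2.63 and 0.946 CPM in C1, C2 and C4. The log2 fold change was 2.15 ± 0.55 (edgeR unadjusted p = 0.00339, adjusted p = 0.510), and DESeq2 gave an adjusted p of 0.0559. It rested on low levels, at most 2.63 CPM in vehicle, and T2 stood well above T1 and T3. Of 10 tested pump assembly factors and partners, 3 fold changes were positive and 7 negative, with none at an unadjusted p under 0.05. Oxr1, a TLDc-domain protein of that list, had 222, 255 and 233 CPM in T1, T2 and T3, and 245, 183 and 308 CPM in C1, C2 and C4. Of 9 tested regulators of lysosomal genes, 4 fold changes were positive and 5 negative, again with none past that threshold. Of these, Lamtor1, which anchors mTORC1 signalling to the lysosome, had 159.7, 139 and 148 CPM in T1, T2 and T3, and 129, 155 and 162 CPM in C1, C2 and C4. Of 9 genes that sort enzymes to lysosomes through mannose 6-phosphate, 4 fold changes were positive and 5 negative. Gga2, an adaptor for the mannose 6-phosphate receptors, had 7.14, 7.11 and 8.10 CPM in T1, T2 and T3, against 8.43, 10.2 and 16.8 CPM in C1, C2 and C4 (log2 fold change -0.68 ± 0.29, edgeR unadjusted p = 0.0454, adjusted p = 0.834).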

How the data were processed

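All 6 libraries were used, 3 from TEPP-46 and 3 from vehicle mice, each made with a nanopore cDNA-PCR kit from total RNA of perihematomal tissue per the labels' protocols. The authors deposited raw counts per gene and per isoform, per the file headers, with p-values, log2 fold changes and calls of their own, which are quoted only as the authors' deposited table. Another 12 columns of values per library were not used. GRCm38 as build and DESeq 1.10.1 as tool come from the submitters' processing notes. The headers of the authors' p-value and fold change columns name DESeq2 instead, and which was used could not be settled. The aligner was not given in the sources used here, nor was the counter. Column letters tie libraries to groups, but column numbers match no labelled sample, so libraries are named by column. CPM was computed from the deposited counts. Genes and isoforms were tested on the whole table with edgeR 4.0.16 in R 4.3.3 (filterByExpr, TMM scaling, robust quasi-likelihood fit, Benjamini-Hochberg adjustment), isoform proportions with diffSpliceDGE, and Lamp2 shares with an exact permutation test. The test scripts were tested on simulated counts. Alternatives were RLE scaling, no filter, DESeq2 1.42.0 and leaving out each library. The members and lists were chosen with earlier results of these data known. Values in every library are given for members at an unadjusted p under 0.05, the 3 of each role with the highest CPM, the 3 with the widest vehicle range and preset pairs of relatives; the lists follow a like rule. Log2(CPM + 1) was used only to rank libraries and in plots. Promoters are from RefSeq on GRCm38.p6, and gene positions from the GENCODE annotation of GRCm38. Results for some items of the lists are not reported here.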

Additional observations from a re-analysis of the deposited data

How the results depend on the processing

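Members in the hydrolase and membrane group had a wide spread within vehicle, and with 3 libraries a group this limits what could be called. Of the genes tested, 0 were called with all libraries by edgeR, 88 by DESeq2 and between 0 and 43 with a library left out; isoforms called were 0, 158 and between 0 and 178. Members at an unadjusted p under 0.05 numbered 1 with each scaling and filter, and between 1 and 8 with a library left out, the highest without C2. The median fold change of the pump genes lay between -0.13 and 0.00 (0.00365, without C4) with a library left out, and that of the hydrolase and membrane group between -0.15 without C4 and 0.30 without C2. Psap, at 0.01, turned to -0.00407 with RLE scaling, -0.00883 with no filter, -0.0057 by DESeq2 and between -0.0614 and 0.137 with a library left out. With a library left out, log2 fold changes lay between -0.136 and 0.686 for Cd63, between -0.0866 and 0.127 for Atp6v1a, and between -0.15 and 0.00969 for Atp6v0c. The difference in the share of Lamp2 form B, at -0.34 percentage points, lay between -0.949 and 0.262 (without T3), and that of form A between 0.731 (without C4) and 8.50. Genes called for isoform usage numbered 1, 0 with isoforms of mean count 10 or more, and between 0 and 1 with a library left out. The causes were not tested. Lamp1 kept its sign in every alternative run, which groups that do not overlap in CPM make near certain when a library is left out. No paired analysis was possible because the columns' numbers do not match the replicate numbers in the labels.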
